A study of Mus musculus with 15 samples.

Results

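The nuclear-encoded subunits of respiratory complex I were taken as every gene with a GRCm38 symbol of Ndufa, Ndufb, Ndufc, Ndufs or Ndufv followed by a digit, which leaves out the Ndufaf assembly factors. The rule matched 41 symbols, of which 37 had a count among the 22524 genes counted, while Ndufa11b, Ndufb1-ps, Ndufb4c and Ndufs6b were not analysed here. The 37 members hold 7 core subunits, 28 accessory subunits, and Ndufa4 and Ndufa4l2, which keep a complex I name although Ndufa4 is now known as a subunit of complex IV and Ndufa4l2 is its paralog. All 37 passed the filter on low counts. Total RNA was sequenced from 7 female C57BL/6 mice heterozygous for Rps9 D95N, a substitution at residue 95 of a small-subunit ribosomal protein, and from 8 wild-type littermates, all aged 18 months. The labels name no litter or batch and do not say how the allele was made. Libraries are named by their animal number.

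Complex I is the entry point of the respiratory chain. It takes electrons from NADH in its matrix arm, passes them along iron-sulphur clusters to ubiquinone, and couples this to proton pumping in its membrane arm. The core subunits carry the redox and pumping machinery and are shared with bacteria, whereas the accessory subunits surround the core and serve assembly and stability. The membrane-arm core is encoded in mitochondrial DNA, so the assembled complex needs both genomes. Neurons depend heavily on respiration for ATP.

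The series design names brain cortex as the source, whereas the tissue field names skeletal muscle. The neuronal gene Snap25 stood at a mean of 2798 CPM (read counts relative to library size, after TMM scaling) and the skeletal muscle actin Acta1 at 6.19 CPM. Total counts ran from 23349381 to 34587082 per library and averaged 28994834 ± 3924638 in D95N (SD, n = 7) and 31533298 ± 2071895 in wild type (SD, n = 8), a difference within the spread (two-sided exact permutation test over 6435 regroupings, p = 0.140). The share of counts from mitochondrially encoded genes was 3.76% ± 0.371 in D95N and 3.89% ± 0.174 in wild type (SD, n = 7 and 8, exact permutation p = 0.417). Rps9 was counted at 63.1 ± 6.13 CPM in D95N and 65.3 ± 3.02 CPM in wild type (SD, n = 7 and 8). That difference, -0.05 on the log2 scale, did not pass (adjusted p = 0.505, edgeR's quasi-likelihood test). The counts do not separate the mutant allele from the wild-type allele. In bulk tissue, a change in the share of a cell type and a change in RNA per cell cannot be told apart.

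Of the 37 members, 14 were higher in D95N and 0 were lower at an adjusted p under 0.05 in edgeR's quasi-likelihood test over 14989 genes. Of all genes tested, 15.2% were higher and 11.6% were lower, 26.8% in either direction, so the members held 37.8% higher against 15.2%. A share called also depends on precision. The median standard error of the log2 fold change was 0.0468 in the members and 0.0650 over all genes tested. At an unadjusted p under 0.05, 19 members were higher and 0 lower; DESeq2 called 16 higher and 0 lower (15.5% of all genes higher), and limma-voom 12 and 0 (14.1%). The log2 fold change was above 0 in 33 members and below 0 in 4, with a median of 0.10 against -0.01 over all genes tested. The changes were small: the called members rose between 1.07-fold and 1.21-fold. Scaling by library totals turned the split over all genes from 2272 higher and 1744 lower to 1808 and 2536, and upper-quartile factors gave 1926 and 2351. Both left 10 members higher, against 12.1% and 12.8% of all genes, and both ended the calls of Ndufa6, Ndufa12, Ndufa13 and Ndufv2. Without the 2 shallowest libraries, D95N 28 and 50, Ndufa6 and Ndufa13 lost their calls. Under library totals the members' median of 0.07 lay 0.111 above that of all genes, against 0.112 with TMM factors.

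Among the core subunits 1 of 7 was higher, 14.3% against the 15.2% of all genes, with a median log2 fold change of 0.05. Among the accessory subunits 13 of 28 were higher, 46.4%, with a median of 0.15. Within the accessory class, 5 of the 9 subunits on the matrix arm and 8 of the 19 on the membrane arm were higher. Neither Ndufa4 nor Ndufa4l2 passed. The difference between core and accessory shares was not tested.

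**Figure D1:**
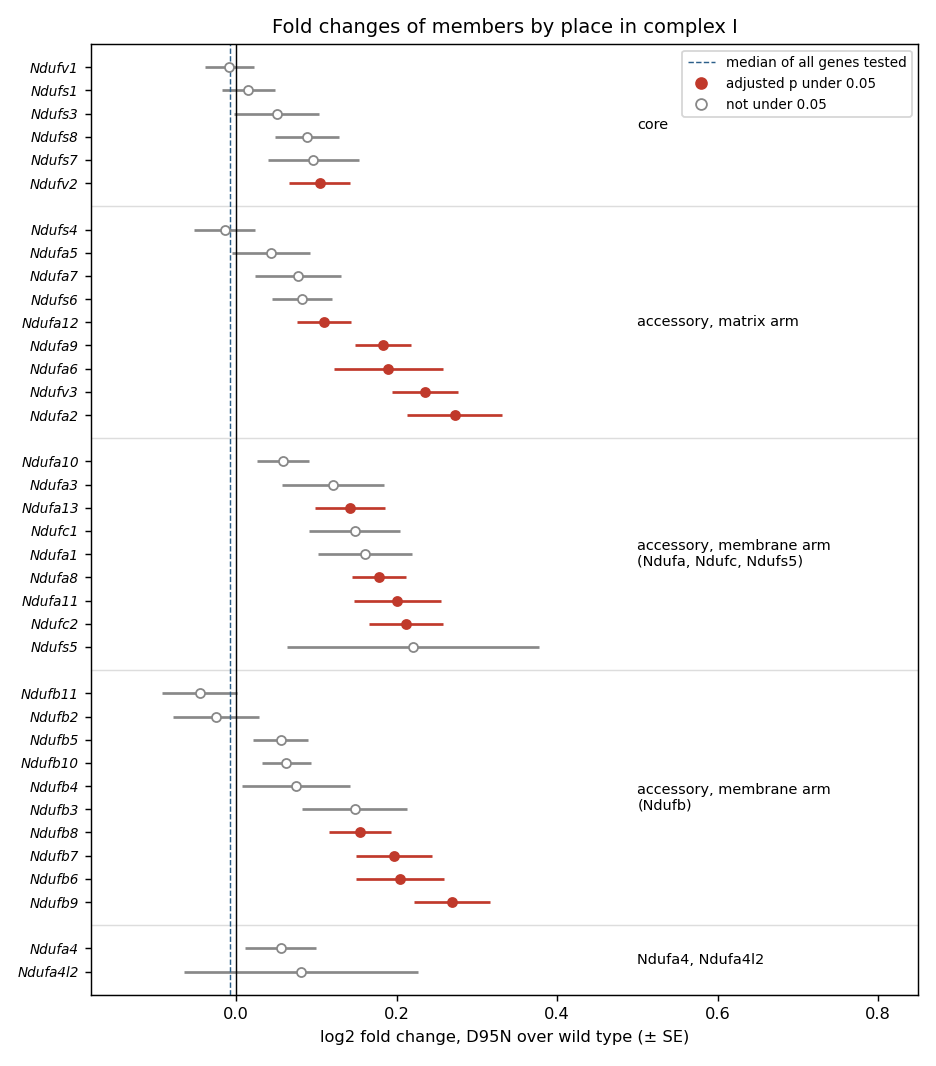
Log2 fold change of D95N over wild type with its standard error for the members described singly, grouped by place in complex I; filled red points passed an adjusted p of 0.05 and the dashed line is the median of all genes tested. The 14 filled points hold 1 core subunit, Ndufv2, and 13 accessory subunits.

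The core subunit that rose was Ndufv2 (ENSMUSG00000024099, chr17:66078638-66101559), an iron-sulphur subunit of the NADH-binding tip. It ran from 123 through a median of 129 to 138 CPM in wild type and from 131 through 141 to 151 CPM in D95N. All 7 D95N libraries lay above the wild-type median and 4 lay above every wild-type library. The log2 fold change was 0.10 ± 0.04 (SE) with an adjusted p of 0.0490 in edgeR, and the call was lost in 9 of 15 fits that each left out 1 library: D95N 21, 4 or 44, or wild-type 11, 19, 24, 30, 32 or 43, with adjusted p up to 0.0973.

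Its partner in the NADH-binding tip, Ndufv1, which holds the flavin that accepts electrons from NADH, ran from 166 through 175 to 178 CPM in wild type and from 165 through 170 to 183 CPM in D95N. In D95N, 2 libraries lay above every wild-type library and 1 below every one, and the log2 fold change was -0.01 (adjusted p = 0.864, edgeR). Ndufs1, the large iron-sulphur subunit of the same tip, ran from 167 through 180.2 to 194 CPM in wild type and from 171 through 183 to 191 CPM in D95N, with a log2 fold change of 0.02 (adjusted p = 0.760, edgeR). Every D95N library of Ndufs1 lay inside the wild-type range.

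Further core subunits form the module that hands electrons to ubiquinone. Ndufs3, one of them, ran from 26.0 through 27.1 to 30.6 CPM in wild type and from 26.3 through 28.1 to 33.5 CPM in D95N (log2 fold change 0.05, adjusted p = 0.505, edgeR). The medians of the groups lay close together, and 5 of 7 D95N libraries fell within the wild-type range.

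Ndufs7, which binds the last iron-sulphur cluster before the quinone, ran from 63.7 through 67.6 to 74.3 CPM in wild type and from 64.8 through 70.2 to 88.3 CPM in D95N (log2 fold change 0.10, adjusted p = 0.215, edgeR). Ndufs8, an iron-sulphur subunit beside it, ran from 63.3 through 64.2 to 70.2 CPM in wild type and from 64.7 through 70.4 to 76.2 CPM in D95N (0.09, adjusted p = 0.107, edgeR). For Ndufs8, 7 of 7 D95N libraries lay above the wild-type median and 4 above every wild-type library, yet it did not pass. The fitted values of Ndufs7 and Ndufs8 were near that of Ndufv2.

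**Figure D2:**
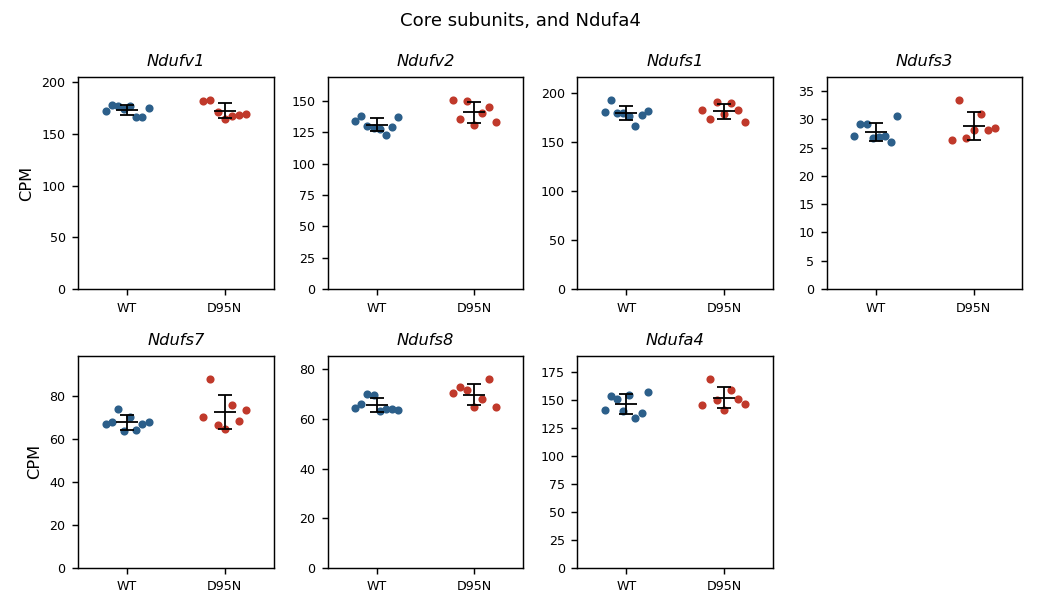
Level in CPM of the core subunits named in the text and of Ndufa4 in each wild-type and D95N library, with the group mean and SD as bars; axes start at 0. The groups overlap in each panel, and Ndufv2 is the core subunit that passed, at medians of 129 and 141 CPM.

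On the matrix arm, the accessory subunit with the smallest p was Ndufv3 (ENSMUSG00000024038, chr17:31520115-31531331), a small subunit bound to the NADH-binding tip. It ran from 38.9 through 40.3 to 44.1 CPM in wild type and from 42.5 through 49.4 to 50.5 CPM in D95N. D95N 41 alone fell within the wild-type range, and the other 6 lay above it. The log2 fold change was 0.24 ± 0.04 (SE), 1.18-fold, with an adjusted p of 0.000954 in edgeR.

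Ndufa9, a subunit beside the quinone site that holds NADPH, ran from 101 through 111 to 119.6 CPM in wild type and from 118 through 129 to 132 CPM in D95N. In 6 of 7 D95N libraries it lay above every wild-type library. The log2 fold change was 0.18 ± 0.04 (adjusted p = 0.00166, edgeR). Ndufa2, a subunit with a thioredoxin-like fold, ran from 37.5 through 39.4 to 42.5 CPM in wild type and from 39.7 through 48.1 to 57.7 CPM in D95N. Again D95N 41 was the library inside the wild-type range, and the log2 fold change of 0.27 ± 0.06 (adjusted p = 0.00339, edgeR) was the highest of the 37 members.

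The other called subunits of the matrix arm were Ndufa12, which sits between the NADH tip and the quinone module, at 1.08-fold (adjusted p = 0.0228, edgeR), and Ndufa6, a subunit of the LYR family, at 1.14-fold (adjusted p = 0.0478, edgeR). Ndufa6 lost its call in 11 of 15 fits without 1 library, those without D95N 28, 41, 42, 44 or 50 or wild-type 11, 19, 24, 30, 32 or 43, with adjusted p up to 0.0951. Ndufa5, Ndufa7, Ndufs4 and Ndufs6 did not pass, with log2 fold changes from -0.01 in Ndufs4 to 0.08 in Ndufs6. Ndufs4, whose loss causes Leigh-like disease, ran from 52.5 to 58.9 CPM in wild type and from 51.1 to 58.1 CPM in D95N.

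On the membrane arm, Ndufb9 (ENSMUSG00000022354, chr15:58933756-58939488), another LYR-family subunit near the far end of the arm, had the smallest p of all members. It ran from 126 through 135 to 148 CPM in wild type and from 147 through 167 to 187 CPM in D95N. The 6 D95N libraries other than D95N 41 lay above every wild-type library. The log2 fold change was 0.27 ± 0.05 (SE), with an adjusted p of 0.000932 in edgeR.

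Ndufa8 (ENSMUSG00000026895, chr2:36036326-36049406), a twin-CX9C protein on the intermembrane-space side, was the 1 member whose groups did not overlap. It ran from 73.2 through 75.6 to 78.0 CPM in wild type and from 80.1 through 85.1 to 94.9 CPM in D95N. Of all genes tested, 1.81% had every D95N library above every wild-type library and 1.47% every one below, so 1 of 37 is near the background. The log2 fold change of Ndufa8 was 0.18 ± 0.03 (adjusted p = 0.00138, edgeR).

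Ndufc2, which is needed for assembly of the membrane arm, ran from 67.6 through 69.8 to 75.4 CPM in wild type and from 68.7 through 82.5 to 89.0 CPM in D95N (log2 fold change 0.21 ± 0.05, adjusted p = 0.00357, edgeR). Ndufa11, which lies where the arm meets complex III in the supercomplex, ran from 42.3 through 44.2 to 48.0 CPM in wild type and from 43.2 through 51.3 to 60.9 CPM in D95N (0.20 ± 0.05, adjusted p = 0.0114, edgeR). In both, D95N 41 fell inside the wild-type range and the other 6 D95N libraries lay above it.

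Among the Ndufb subunits, Ndufb7, a further CX9C protein, ran from 44.7 through 47.3 to 50.7 CPM in wild type and from 47.8 through 53.8 to 61.6 CPM in D95N (log2 fold change 0.20 ± 0.05, adjusted p = 0.00622, edgeR). Ndufb8, often used as the antibody marker of assembled complex I, ran from 111 through 117 to 121 CPM in wild type and from 119 through 132 to 142 CPM in D95N (0.15 ± 0.04, adjusted p = 0.0081, edgeR). Ndufb6 ran from 36.9 through 40.4 to 47.7 CPM in wild type and from 41.2 through 47.5 to 51.7 CPM in D95N (0.20 ± 0.05, adjusted p = 0.0113, edgeR). Ndufb7 showed 6, Ndufb8 5 and Ndufb6 3 D95N libraries above every wild-type library, so the groups overlapped more in Ndufb6.

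**Figure D3:**
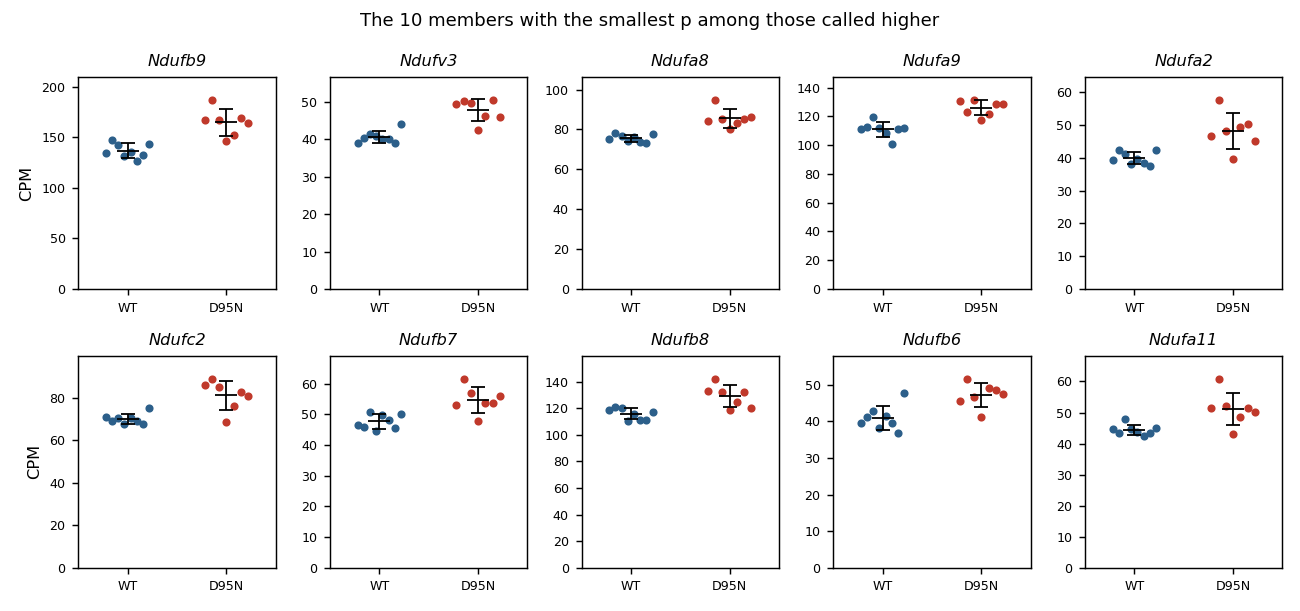
Level in CPM of the 10 members with the smallest p, in each wild-type and D95N library, with the group mean and SD as bars; axes start at 0. Ndufa8 is the panel without overlap, at no more than 78.0 CPM in wild type and no less than 80.1 CPM in D95N.

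The remaining called membrane-arm subunit was Ndufa13, also known as Grim19, at 1.10-fold (adjusted p = 0.0229, edgeR). Just outside the threshold were Ndufa1, 0.16 higher on the log2 scale (adjusted p = 0.0502), and Ndufc1 at 0.15 (adjusted p = 0.0613), both in edgeR, and DESeq2 called both. The 9 others of the membrane arm that did not pass were Ndufa3, Ndufa10, Ndufb2, Ndufb3, Ndufb4, Ndufb5, Ndufb10, Ndufb11 and Ndufs5. Their log2 fold changes ran from -0.05 in Ndufb11 to 0.22 in Ndufs5, which had the lowest level of the 35 subunits, 2.07 to 5.16 CPM in wild type and 3.13 to 4.98 CPM in D95N. Ndufa3 lies 83.7 kb from Rps9 on chromosome 7, on the chromosome that carries the substitution, and its log2 fold change was 0.12 (adjusted p = 0.163, edgeR).

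The pair outside complex I did not pass. Ndufa4 ran from 133 through 146 to 157 CPM in wild type and from 141 through 150.3 to 169 CPM in D95N (log2 fold change 0.06, adjusted p = 0.373, edgeR). Ndufa4l2, which is known from hypoxic cells and pericytes, ran from 1.35 through 1.84 to 2.54 CPM in wild type and from 1.37 through 2.05 to 2.50 CPM in D95N (0.08, adjusted p = 0.711, edgeR). Ndufab1, the mitochondrial acyl carrier protein, is a complex I subunit whose name the rule leaves out. It ran from 11.5 through 13.5 to 13.8 CPM in wild type and from 10.04 through 11.6 to 13.2 CPM in D95N, with 7 of 7 D95N libraries below the wild-type median. Its log2 fold change of -0.16 ± 0.06 (adjusted p = 0.059, edgeR) had the opposite sign to that of most members and did not pass.

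The libraries within a group differed. For 35 subunits, each library's deviation from the wild-type mean was taken on log2(CPM + 0.5) and summarised by its median. The medians ran from 0.01 in D95N 41 through 0.13 to 0.24 in D95N 28 for the mutants, and from -0.06 in wild-type 24 through -0.01 to 0.07 in wild-type 8 for the controls. D95N 41 and D95N 50 lay inside the wild-type range and the other 5 mutants above it. Of these, D95N 21 lay at its edge, at 0.0727 against 0.0721 in wild-type 8. D95N 41 held the lowest D95N value for 22 of the 37 members and D95N 28 the highest for 23. Wild-type 8 held the highest wild-type value for 20.

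D95N 28 had 28 of 35 subunits above every wild-type library, D95N 42 had 21, and D95N 41 had 2. The matching shares of all genes in these libraries were not taken, so the counts are not shown to be particular to complex I. D95N 28 is also among the 2 shallowest libraries. Wild-type 8 had 19 of 35 above the 7 other wild-type libraries, and wild-type 24 had 13 below them. Without D95N 28, 13 members were called higher, without D95N 41, 15, and without wild-type 8, 16. Over all 15 fits that left out 1 library, 12 to 16 members were higher, against 13.0% to 17.9% of all genes, and 0 lower, and 12 of the 14 called members were called in every one, the exceptions being Ndufv2 and Ndufa6.

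**Figure D4:**
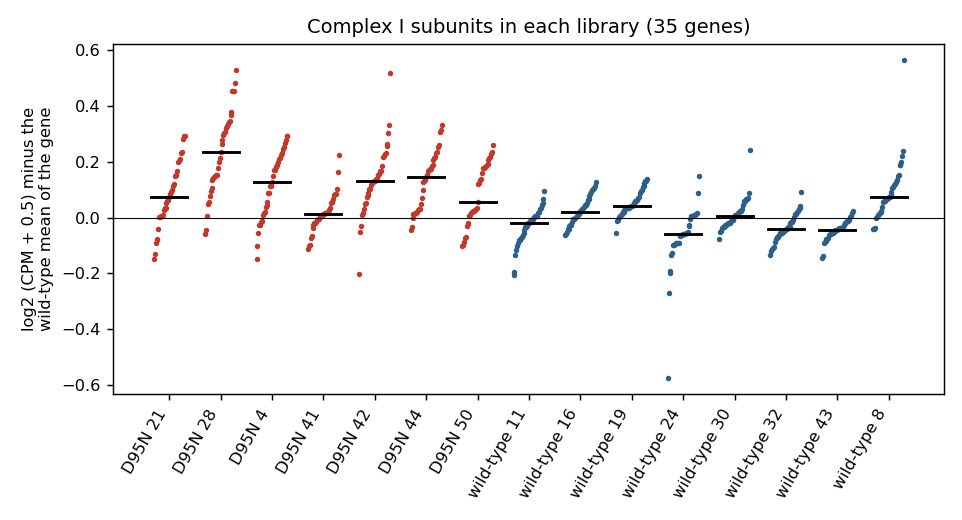
Deviation of each of the 35 complex I subunits from its wild-type mean, on log2(CPM + 0.5), in each library; dots are genes and the black bar is the median. D95N 28 stands highest with a median of 0.24, and D95N 41 lies among the wild-type libraries at 0.01.

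Summed over the 35 subunits, levels ran from 2349 through 2415 to 2540.4 CPM in wild type and from 2443 through 2613 to 2794 CPM in D95N. The 7 core subunits summed to 803 to 870.1 CPM in wild type and to 827 to 895 CPM in D95N, and the 28 accessory subunits to 1528 to 1683 CPM and to 1616 to 1899 CPM. All 3 sums overlapped between the groups. The spread between libraries was larger in D95N than in wild type for 25 of 37 members (67.6%), against 83.0% of all genes tested.

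Levels per kilobase of the principal transcript were taken from the wild-type libraries. Ndufa4 stood highest at 239 ± 14.7 CPM per kb (SD, n = 8), above Ndufb9 at 194 ± 10.2 and Ndufb8 at 170.4 ± 6.16, and these 3 were each apart by more than their SD. Ndufb10 at 125 ± 4.09, Ndufv1 at 104 ± 2.75 and Ndufc2 at 103 ± 3.66 CPM per kb stood lower, and the last 2 were within their spread. From Ndufb5 at 82.4 to Ndufb6 at 62.1 CPM per kb, neighbours in the order differed by less than the larger of their SDs, except Ndufb7 at 76.5 ± 3.75 and Ndufa7 at 71.0 ± 4.16 CPM per kb. At the low end stood Ndufb4 at 10.9, Ndufb2 at 9.98, Ndufs5 at 5.02 and Ndufa4l2 at 2.02 CPM per kb. The level of Ndufb2 depends on its annotated principal transcript of 4371 bases.

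Near-identical copies and overlapping genes bear on some of these counts. Of the 37 members, 17 shared no 50-base stretch of their principal transcript with another annotated gene, and 7 shared at least 20% of such stretches, Ndufs3 (39.7%), Ndufb4 (37.0%), Ndufb6 (34.1%), Ndufs5 (31.1%), Ndufa13 (28.5%), Ndufa12 (26.2%) and Ndufb9 (23.4%). The exons of 14 members overlapped an antisense gene, and those of Ndufb2, Ndufb8 and Ndufb9 a gene on the same strand. The values of these members are uncertain, since the strand setting and the handling of multiply matching reads were not given in the sources used here. Of the 15 members with no shared stretch and no exon overlap, 6 were called higher: Ndufa6, Ndufa8, Ndufb7, Ndufc2, Ndufv2 and Ndufv3. Over all genes tested the share was 15.2%, and it was not taken for genes free of such overlaps. Ndufa6 and Ndufv2 lost their calls in 11 and 9 of 15 fits that each left out 1 library. Ndufb7 and Ndufa6 lost theirs with offsets for GC content and length.

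Accessory transcripts are short, with a median principal transcript of 747.5 bases against 1623 for the core subunits and 3062 for all genes tested. Among all 816 tested genes with a principal transcript under 1000 bases, 14.6% were higher and 5.02% lower, and among longer genes 15.2% and 12.1%. Of the accessory subunits, 9 of 19 under 1000 bases and 4 of 9 longer ones were higher. With offsets for GC content and length, 14 members were again higher, against 16.6% of all genes, but only 10 of them were among the first 14: Ndufa6, Ndufa11, Ndufa13 and Ndufb7 were lost, and Ndufa1, Ndufb3, Ndufb5 and Ndufc1 were gained.

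Markers of several other cell types were called, and their counts stand against 15.2% of all genes higher and 11.6% lower. Of the tested blood markers 8 of 9 were lower in D95N, and their summed level ran from 37.9 to 152 CPM against 83.3 to 338 CPM in wild type. Of the meningeal markers 7 of 15 were lower and 1 was higher (116 to 224 against 199.7 to 272 CPM). Of the striatal markers 8 of 16 were lower (992 to 1864 against 1143 to 1741 CPM), and of the astrocyte markers 4 of 10 (5240 to 6294 against 6000.2 to 6378 CPM). Endothelial and pericyte markers were lower in 3 of 10 (280.0 to 376 against 285 to 409.9 CPM) and oligodendrocyte markers in 1 of 10 (5997 to 7743 against 6549 to 7966 CPM). Of the microglial markers 1 of 10 was higher (444 to 596 against 506 to 666 CPM), choroid plexus markers held 0 of 10 in either direction in edgeR (517 to 1914 against 652 to 1904 CPM), and of 10 neuronal markers 2 were higher and 2 lower (8977 to 9497 against 8911 to 9417 CPM). The counts of the neuronal, oligodendrocyte, microglial and choroid plexus lists were near or below those shares. No marker on these lists was at 0 in every library.

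With the mean levels of the blood and meningeal markers as covariates, edgeR called 0 of 37 members, with 7 at an unadjusted p under 0.05, and 0.347% of all genes, 0.14% higher. The members' median log2 fold change was then 0.09 and their median standard error 0.0699, against 0.10 and 0.0468 without the covariates. With oligodendrocyte, choroid plexus and striatal marker levels as covariates, 1 member was higher, Ndufb9 (adjusted p = 0.0393, edgeR), against 7.58% of all genes, with a median of 0.10 and a median standard error of 0.0770. Among the mutants, D95N 28, with the most subunits above every wild-type library, had blood markers at 73.4 CPM and meningeal markers at 128 CPM, the second lowest meningeal sum. D95N 42, with 21 such subunits, had the highest mutant blood sum, 152 CPM, and meningeal markers at 199.2 CPM. D95N 41, with the smallest subunit deviation, had the lowest blood sum, 37.9 CPM, and meningeal markers at 193 CPM. D95N 50, with the next smallest, had blood markers at 55.9 CPM and the highest mutant meningeal sum, 224 CPM. D95N 21, at a median deviation of 0.07, had the lowest meningeal sum, 116 CPM, and blood markers at 65.3 CPM. D95N 44 (0.15) had blood markers at 60.8 CPM and meningeal markers at 179 CPM, and D95N 4 (0.13) at 53.7 and 191 CPM. The part of these cell types in the subunit result was not tested beyond these fits.

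Promoter sequences, taken from RefSeq on GRCm38.p6 from 250 bases before to 50 bases after the annotated start, were found for 32 of the 37 members. They were searched on both strands for short motifs of factors known from respiratory chain genes. The YY1 motif AAGATGGC was in 7 of 32 member promoters, 21.9%, against 3.19% of the promoters of 27025 genes and 4.65% of those of tested genes. It was in 2 of 12 promoters of called members and in 5 of 20 of the others. In all 7 it lay 22 to 38 bases after the start on the strand of the gene, and it held the annotated start codon. The shares over all genes were not limited to genes with a start codon in the window. These 7 sites are shown because the shared position over the start codon is what sets the motif's matches together; the motif is in capitals, and each window reads along the strand of the gene.
Ndufa9, called higher, chr6:126849098-126849125, minus strand: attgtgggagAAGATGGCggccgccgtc
Ndufb8, called higher, chr19:44555393-44555414, minus strand: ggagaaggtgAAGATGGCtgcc
Ndufs4, not called, chr13:114388045-114388069, minus strand: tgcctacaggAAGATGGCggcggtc
Ndufs6, not called, chr13:73328433-73328459, minus strand: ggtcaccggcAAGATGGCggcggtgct
Ndufs7, not called, chr10:80249463-80249490, plus strand: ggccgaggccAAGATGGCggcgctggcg
Ndufa3, not called, chr7:3617385-3617412, plus strand: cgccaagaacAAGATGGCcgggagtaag
Ndufc1, not called, chr3:51408916-51408943, minus strand: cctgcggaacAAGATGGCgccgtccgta

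The NRF1 motif GCGCATGCG was in 2 of 32 member promoters, Ndufa8 and Ndufa11, 6.25% against 1.95% of all genes and 3.69% of tested genes. Both genes were called higher. In Ndufa11 the motif matched both strands at overlapping positions. The motif was read on the opposite strand in Ndufa8, and both sites lie before the RefSeq start. The Ndufa8 site nevertheless overlaps an annotated exon, as the gene reaches to base 36049406 in the GENCODE M21 annotation. The Ndufa11 site overlaps none. In the windows below, the motif, or its reverse complement, is in capitals.
Ndufa11, called higher, chr17:56717692-56717720, plus strand: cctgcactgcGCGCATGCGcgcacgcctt
Ndufa8, called higher, chr2:36049329-36049357, minus strand: tcgctggagaCGCATGCGCagatggtacc

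The ETS and GABP motif CCGGAAGT was in 1 of 32, Ndufs3, against 4.31% of all genes and 7.98% of tested genes, and the ERR alpha motif TCAAGGTCA was in 0 of 32 against 0.466% and 0.328%. These matches describe letters in a window and carry no measure of binding.

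The other genes of the pathway were taken from gene lists. Of the 7 ND subunits encoded in mitochondrial DNA, 5 passed the filter. With edgeR, DESeq2 or limma-voom 0 passed the test in either direction, against 26.8%, 27.4% and 26.2% of all genes. An unadjusted p under 0.05 was reached by 1. That gene was mt-Nd6, which ran from 35.2 through 40.1 to 46.4 CPM in wild type and from 35.8 through 49.0 to 62.3 CPM in D95N (log2 fold change 0.27 ± 0.11, adjusted p = 0.0809, edgeR). With GC and length offsets its adjusted p was 0.0181. The highly expressed mt-Nd1 was at 6508 ± 399 CPM in wild type and 6293 ± 845 CPM in D95N (SD, n = 8 and 7), a difference of -0.05 on the log2 scale (adjusted p = 0.629, edgeR).

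Of 19 complex I assembly factors, 0 were higher in edgeR, DESeq2 or limma-voom, against 15.2%, 15.5% and 14.1% of all genes. In edgeR 1 was lower (5.26%), in DESeq2 2 and in limma-voom 1, against 11.6%, 11.9% and 12.2% of all genes. At an unadjusted p under 0.05 in edgeR, 0 were higher and 3 lower. The 1 called lower in edgeR was Acad9, a factor of the membrane-arm assembly complex, with a log2 fold change of -0.10 ± 0.03 (adjusted p = 0.0457, edgeR). It ran from 36.2 through 36.8 to 39.2 CPM in wild type and from 32.4 through 35.1 to 36.4 CPM in D95N, with 6 of 7 D95N libraries below every wild-type library. The call of Acad9 was kept in 2 of 15 fits without 1 library. The number of assembly factors lower was 0 with median-ratio factors, with no filter and with GC and length offsets. It was 3 with library totals, against 16.9% of all genes lower.

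Of 41 nuclear subunits of complexes II to V, 15 were higher and 1 lower, 36.6% and 2.44%, against 15.2% and 11.6% of all genes. Cox6a1 of complex IV rose by a log2 fold change of 0.25 ± 0.05 (adjusted p = 0.00194, edgeR) and Cox5a of the same complex by 0.21 ± 0.04 (adjusted p = 0.00239). Atp5d and Atp5j2 of ATP synthase each rose by 0.20 (adjusted p = 0.00348 and 0.00361, edgeR). In all 4, D95N 41 held the lowest D95N value and the other 6 lay above every wild-type library. The 1 that was lower, Atp5g1, which encodes the c subunit of the ATP synthase ring, was named after its values were seen. Its log2 fold change was -0.21 ± 0.06 (adjusted p = 0.0246, edgeR), with 7 of 7 D95N libraries below every wild-type library. Of all genes tested, 1.47% had every D95N library below every wild-type library, so 1 of 41 is near the background. With library totals, 9 were higher and 3 lower in complexes II to V, against 12.1% and 16.9% of all genes. With blood and meningeal covariates edgeR called 0 and 0, against 0.14% and 0.207% of all genes.

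Of 12 regulators of mitochondrial biogenesis, 1 was higher and 2 were lower, 8.33% and 16.7%, near the 15.2% and 11.6% of all genes. Yy1, the factor whose motif was searched above, was 1.09-fold higher (adjusted p = 0.0290, edgeR), with 5 of 7 D95N libraries above every wild-type library. Upper-quartile factors and library totals ended its call (adjusted p = 0.0670 and 0.117, edgeR), as did leaving out D95N 44 or 50 or wild-type 16, 19 or 30 (adjusted p up to 0.0639, edgeR). Tfb1m, which methylates mitochondrial ribosomal RNA, had a log2 fold change of -0.30 ± 0.09 (adjusted p = 0.0183, edgeR), and Esrrg, a nuclear receptor of the ERR family, of -0.25 ± 0.09 (adjusted p = 0.0447, edgeR). The call of Esrrg was kept in 3 of 15 fits without 1 library, and those of Yy1, Tfb1m and Esrrg were lost without the 2 shallowest libraries, D95N 28 and 50. With the blood and meningeal covariates none of the pathway genes named here passed in edgeR.

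**Figure D5:**
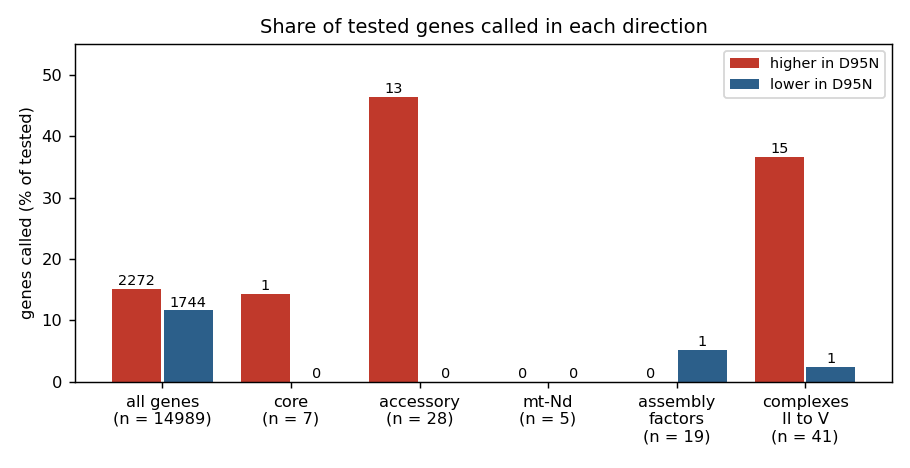
Share of tested genes called higher or lower in D95N, in percent, for all genes, the core and accessory subunits, the mitochondrially encoded ND genes, the assembly factors and complexes II to V; numbers on the bars are gene counts. Accessory subunits (13 of 28) and complexes II to V (15 of 41) exceed the 15.2% of all genes, while 0 of 19 assembly factors were higher.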

How the data were processed

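RNA from 15 mice was analysed from raw counts of reads for each Ensembl gene, which the authors deposited as a separate table for each library. STAR, featureCounts and the GRCm38 build are named per the submitters' processing notes, while versions, annotation and strand setting were not given in the sources used here. Of 22524 genes, 22291 matched symbols of GENCODE M21 and 233 did not. Groups followed the genotype labels. Nothing in the labels ties libraries to separate extraction dates or batches, so p-values measure the spread between these mice as sequenced.

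Counts were fitted in edgeR 4.0.16 (R 4.3.3) by the quasi-likelihood test with genotype as the only term, TMM factors, filterByExpr defaults and Benjamini-Hochberg adjustment over 14989 genes at 0.05. Standard errors were obtained from the log2 fold change and its F statistic. Library totals and mitochondrial shares were compared by exact permutation. Alternatives used other factors, other filters, DESeq2 1.42.0, limma-voom (limma 3.58.1), GC and length offsets (mgcv 1.9.3), marker covariates and left-out libraries. Not every gene the lists hold is reported here by itself.

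The members, the gene lists and the tests were chosen with earlier results of these data known. The rule for named genes takes the 7 core subunits, the 10 called members of smallest p, Ndufa4, Ndufa4l2, the members of highest and lowest level per kilobase, Ndufab1, Rps9, and up to 4 called genes of each pathway list or up to 2 as values; other members named were chosen after their values were seen. Principal transcripts are those tagged by APPRIS in GENCODE M21.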

Additional observations from a re-analysis of the deposited data

Results flagged for a closer look

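Within each group, the highest and lowest library of 41 measured items were compared with their neighbours, 82 groups of values in all. The items were the members, Ndufab1, Rps9 and library measures. Of the 82, 10 held a library set far from the others, where chance alone gives about 1 in 20 for a single group of values. The same libraries recur across items, so the count of 10 is no test against that rate. The mutant library D95N 28 stood high in Ndufa7 (47.6 CPM, the others up to 39.8), Ndufa8 (94.9, up to 86.1) and Ndufb11 (55.9, up to 48.3). D95N 4 stood high in Ndufa10 (159.6 CPM, the others 138 to 143), and D95N 42 in Ndufb2 (52.1 CPM, the others 39.2 to 44.1). Wild-type 8 stood high in Ndufc2 (75.4 CPM, the others up to 71.0) and Ndufv3 (44.1 CPM, up to 41.4). Wild-type 11 stood low in Ndufab1 (11.5 CPM, the others from 12.8), and wild-type 24 in Rps9 (58.4 CPM, the others from 64.4). Wild-type 32 had the highest wild-type share of mitochondrially encoded counts, 4.30%, against 3.72% to 3.88% in the others.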

How the results depend on the processing

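Under 11 alternatives other than leaving out 1 library, 0 to 16 members were higher and 0 lower. The core count fell from 1 to 0 with upper-quartile factors, library totals, no filter, a mean of at least 1 CPM, limma-voom and both sets of marker covariates. With blood and meningeal covariates, 0 members, 0 accessory subunits and 21 genes in all were higher and 31 genes lower; with oligodendrocyte, choroid plexus and striatal covariates, 1 member, 1 accessory subunit and 1136 genes were higher and 717 lower. Leaving out each library in turn gave 12 to 16 members, 0 to 1 core and 12 to 15 accessory subunits higher, 1952 to 2694 genes higher and 1305 to 2282 lower in all, and a members' median of 0.09 to 0.12. Of the 14 called members, 8 were called under every alternative and left-out library apart from both covariate fits. The sign turned in members and pathway genes that were not called: in Ndufs1 with upper-quartile factors (-0.00802), library totals (-0.0187), blood and meningeal covariates (-0.0292) and the other covariates (-0.0207). GC and length offsets turned Ndufa4l2 (-0.00457), Ndufb2 (0.0260), Ndufs4 (0.0558) and mt-Nd1 (0.0688). Blood and meningeal covariates turned Ndufa4 (-0.0199), Ndufa5 (-0.0216), Ndufb2 (0.0875), Ndufb4 (-0.0812) and mt-Nd1 (0.0226). The other covariates turned Ndufa4l2 (-0.151), Ndufa5 (-0.00880), Ndufb5 (-0.0160), and Ndufs3 (-0.0253). Leaving out the 2 shallowest libraries turned mt-Nd1 (0.0282). Over the left-out libraries Ndufs4 ran from -0.0285 to 0.00292, above 0 without D95N 21 (0.000813) or 41, and Ndufv1 from -0.0232 to 0.00311, above 0 without D95N 41. The cause was not tested. No analysis paired by litter was possible, because the labels name no litter although the wild-type mice were littermates. Depth limits Ndufa4l2, at 42 to 81 counts per library.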
